A study of Mus musculus with 6 samples.

Results

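The endocannabinoid genes described here are 8 genes that make, sense or break down the body's own cannabinoid lipids: Cnr1, Cnr2, Napepld, Faah, Dagla, Daglb, Mgll and Abhd6. They were chosen by name from the pathway, not by their measured values, and every probe set that the platform annotation gives to 1 of them and to no other gene was taken. This gave 14 probe sets for the 8 genes, out of 45037 probe sets tested and 18193 genes with a single-gene probe set. The tissue was oviduct of MF1 mice, an outbred stock, taken at embryonic day 2.5 from females that had been mated to wild-type males. There were 3 samples labelled Wt1 ko/+, heterozygous for a knockout allele of the transcription factor Wt1, and 3 labelled Wt1 +/+, each hybridised to 1 array as biotin-labelled cRNA from 1 µg of total RNA. The labels do not give the age of the females, the construction of the knockout allele, or whether a sample was 1 animal or a pool, so each p-value reflects only how far these 6 samples scatter, and part of that scatter may be technical.

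Endocannabinoids are made on demand from membrane phospholipids. Anandamide is released by the phospholipase D encoded by Napepld and hydrolysed by the fatty acid amide hydrolase encoded by Faah. The other main ligand, 2-arachidonoylglycerol (2-AG), is made by the diacylglycerol lipases Dagla and Daglb and hydrolysed mainly by the monoacylglycerol lipase Mgll and by Abhd6. Both ligands act on the G protein-coupled receptors CB1, encoded by Cnr1, and CB2, encoded by Cnr2. In the mouse oviduct, loss of CB1 or of Faah is known to hold embryos back on their way to the uterus, and the balance of anandamide synthesis and hydrolysis is the usual account of how its local level is set. Embryos are in transit through the oviduct at the stage sampled.

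None of the 14 probe sets passed the threshold, an adjusted p of 0.05 over all probe sets in the limma fit (0 of 14, with 1 at an unadjusted p under 0.05). Over all probe sets 0.00666% passed and 5.18% had an unadjusted p under 0.05. The adjusted p of the members lay between 0.933 and 0.984. The anandamide enzymes and Cnr1 stood within 0.15 of 0 on the log2 scale at each of their probe sets. The lowest values relative to wild type were at the 2-AG hydrolases Mgll and Abhd6, where 5 of 6 probe sets had a negative log2 difference. Over all 14 probe sets 10 were negative, against a background of 51.7%. The genotypes did not overlap in 2 of the 14 probe sets, 1 of Mgll and 1 of Abhd6, both lower in heterozygous oviducts, and in 0 with heterozygous arrays higher; over all probe sets 5.87% lay apart in the lower direction, 4.67% in the higher and 10.5% in either. Levels below are quantile-normalised log2 intensities, 1 value per array in the order of replicates 1, 2 and 3, and differences are heterozygous minus wild type with the moderated standard error of limma.

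The Wt1 probe set itself read 11.12, 11.27 and 11.79 in heterozygous and 12.17, 12.06 and 11.67 in wild-type oviducts. Heterozygous replicate 3 was thus above wild-type replicate 3, and the log2 difference of -0.57 (standard error 0.24, limma adjusted p = 0.933, exact permutation p = 0.2) did not pass. Whether this probe set lies inside the deleted stretch was not known, so it checks the labels only weakly. Oviduct markers were bright: Ovgp1, the oviduct-specific glycoprotein of secretory cells, averaged 14.30, and Foxj1, the regulator of motile cilia, 11.91, against 7.28 for the median probe set. The Actb control's 3' over 5' signal, a sign of RNA degradation, was 1.67 to 2.49 in heterozygous and 1.74 to 5.90 in wild-type arrays, highest in wild-type replicate 3. In bulk tissue, fewer cells of a type and less RNA per cell cannot be told apart.

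**Figure D1:**
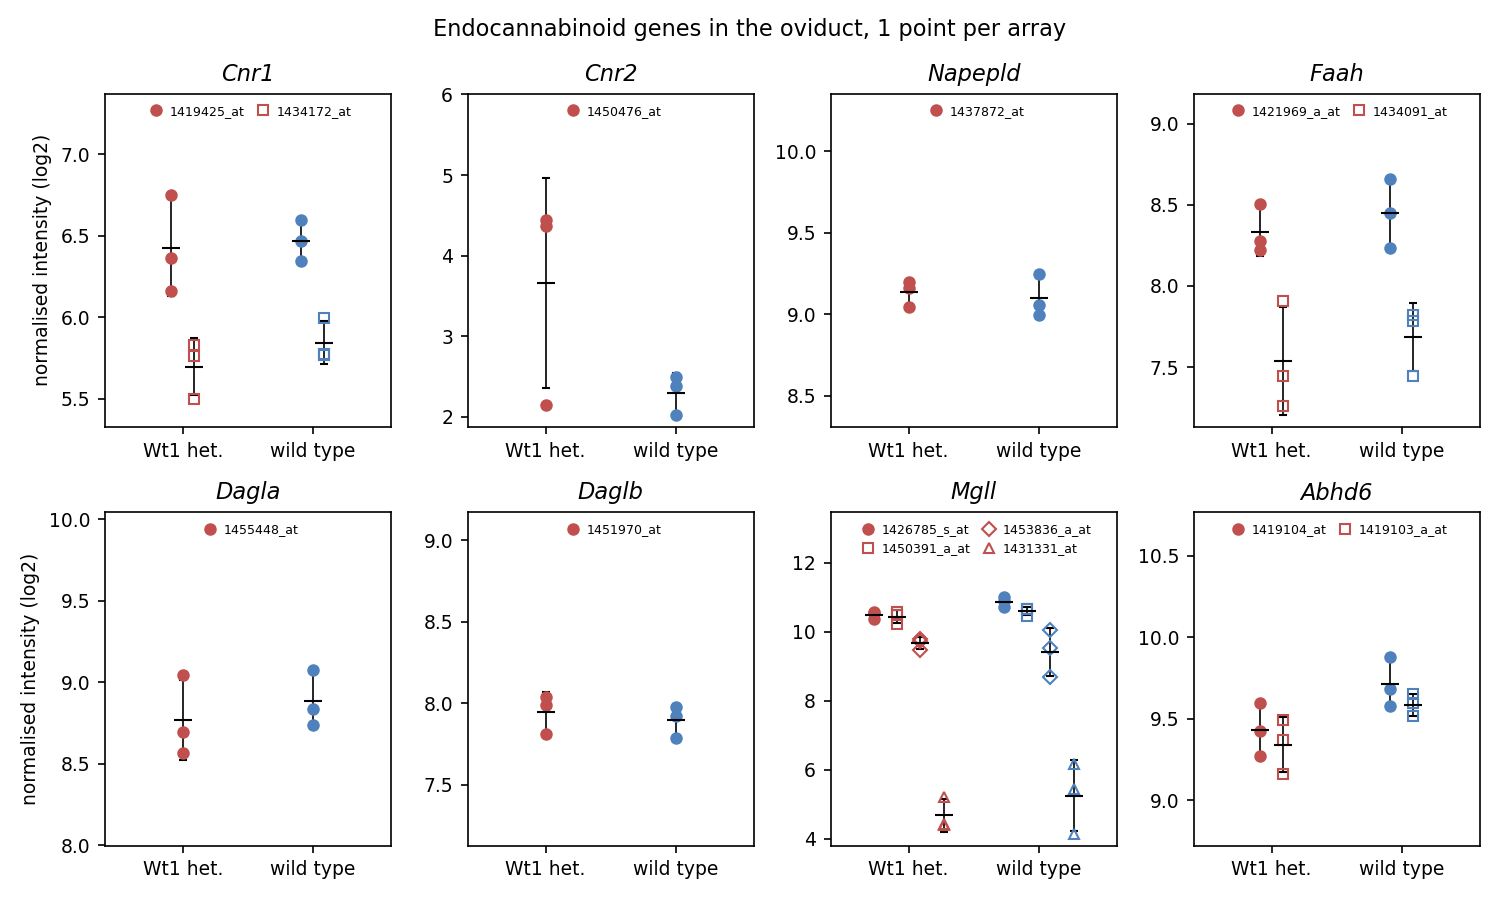
Normalised log2 intensity (vertical axis) of every probe set of the 8 genes, with Wt1 heterozygous oviducts in red and wild-type oviducts in blue; each point is 1 array, and bars give the mean and SD over 3 arrays. Each panel has its own range on the vertical axis. Heterozygous points lie below all wild-type points at Mgll 1426785_s_at and, narrowly, at Abhd6 1419103_a_at, and the genotypes overlap elsewhere.

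Cnr1, the receptor through which anandamide acts on oviductal smooth muscle and nerve endings, was measured by a pair of dim probe sets, dim meaning a mean over the 6 arrays under that of the median probe set. At 1419425_at its level was 6.36, 6.75 and 6.16 in heterozygous oviducts, against 6.47, 6.60 and 6.35 in wild-type oviducts. The highest and the lowest array were both heterozygous, so the wild-type values fell inside the heterozygous range. The log2 difference was -0.04 (standard error 0.20, 95% interval -0.53 to 0.45). At 1434172_at the level was 5.83, 5.50 and 5.77 in heterozygous and 5.998, 5.77 and 5.77 in wild-type oviducts, a log2 difference of -0.15 (standard error 0.16). No detection calls were used, so how far the Cnr1 probe sets stood above background is unknown. The order of the arrays also differed between them: heterozygous replicate 2 was the highest array at 1419425_at and the lowest at 1434172_at. Markers of neurons and glia were mostly dim as well, with 1 of 6 measured genes brighter than the median probe set. The summed level of those markers, on the linear scale like all sums below, ranged from 795 to 1133 in heterozygous and from 938 to 1017 in wild-type arrays. Most of that sum came from S100b, the 1 bright gene, at a mean of 9.38. Smooth muscle markers were higher in heterozygous oviducts for 6 of 6 genes. The part of either cell type in the Cnr1 values was not tested.

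Cnr2, the receptor of immune cells, had the largest difference of the members and also the largest standard error. Its deposited intensities were 4.6, 22.1 and 22.1 in heterozygous oviducts, against 4.8, 4.2 and 6.1 in wild-type oviducts. On the normalised log2 scale this was 2.15, 4.45 and 4.37 in heterozygous and 2.38, 2.02 and 2.50 in wild-type arrays. Heterozygous replicates 2 and 3 stood apart from the other arrays, while heterozygous replicate 1 lay among the wild-type ones. The log2 difference of 1.36 had a standard error of 0.65 and a 95% interval of -0.24 to 2.96 (limma adjusted p = 0.933, exact permutation p = 0.3). It was 0.54 when 16 was added to each intensity before taking logs, 2.11 without heterozygous replicate 1 and 0.96 without heterozygous replicate 2. All of these values lie far below the median intensity of 152 to 168 per array. Leukocyte markers overlapped between the genotypes, with 5 of 7 measured genes higher and a summed level of 4718 to 5793 in heterozygous and 4388 to 5702 in wild-type arrays. Itgam, an integrin of myeloid cells at a dim probe set, gave 1.36 on the log2 scale with overlap (standard error 0.67), and Ptprc, the common leukocyte antigen, gave 0.25. The macrophage genes Csf1r and Adgre1 gave 0.07 and -0.06, and the B cell genes Cd79a, Cd79b and Ms4a1 gave -0.09, 0.11 and 0.17. Their part in the Cnr2 values was not tested.

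Napepld, which releases anandamide, was among the most even of the members, with a range of 0.25 over the 6 arrays. Its level was 9.20, 9.04 and 9.16 in heterozygous and 8.99, 9.24 and 9.06 in wild-type oviducts. The wild-type arrays included both the highest and the lowest value. The means were 9.13 ± 0.08 and 9.10 ± 0.13 (SD, n = 3 each) in heterozygous and wild-type oviducts, a log2 difference of 0.04 (standard error 0.14). The 95% interval ran from -0.32 to 0.39, that is from 0.802 to 1.31 times the wild-type level.

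Faah, which hydrolyses anandamide, was measured by 1421969_a_at and 1434091_at. At the brighter 1421969_a_at it read 8.27, 8.22 and 8.50 in heterozygous oviducts, against 8.23, 8.66 and 8.45 in wild-type oviducts. The genotypes overlapped over most of their range, and the log2 difference was -0.12 (standard error 0.18, 95% interval 0.684 to 1.25 times the wild-type level). At 1434091_at the level was 7.44, 7.26 and 7.91 in heterozygous and 7.44, 7.82 and 7.79 in wild-type oviducts. The log2 difference there was -0.15 (standard error 0.23), and heterozygous replicate 3 was the highest array of all. Both Faah probe sets were highest among heterozygous arrays in replicate 3 and lowest in replicate 2, so they ordered the heterozygous samples alike. The ratio of Napepld to Faah signal within each array, set to 0 at the wild-type mean, was 0.27, 0.17 and 0.01 in heterozygous and 0.11, -0.07 and -0.04 in wild-type oviducts on the log2 scale. Its mean was 0.15 ± 0.14 in heterozygous and 0 ± 0.10 in wild-type oviducts (SD, n = 3 each), with overlap between the genotypes. A ratio of this kind shows unequal change of its members and not which of them changed.

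Dagla, the diacylglycerol lipase best known from neurons, had levels of 8.70, 8.57 and 9.05 in heterozygous and 8.74, 8.84 and 9.07 in wild-type oviducts. Replicate 3 was the highest array in each genotype. The log2 difference was -0.11 (standard error 0.19, 95% interval -0.58 to 0.35). Daglb, the lipase of macrophages and many peripheral tissues, read 7.99, 7.81 and 8.04 in heterozygous and 7.98, 7.92 and 7.79 in wild-type oviducts. Its log2 difference was 0.05 (standard error 0.14, 95% interval -0.31 to 0.41). The ranges of the genotypes nearly coincided for Daglb, and each of these genes was measured by 1 probe set.

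Mgll, the main 2-AG hydrolase of most tissues and the enzyme that completes the breakdown of stored fat, had 4 probe sets, and their differences did not share a sign. At 1426785_s_at the level was 10.56, 10.55 and 10.36 in heterozygous oviducts, against 10.72, 10.99 and 10.90 in wild-type oviducts. Each heterozygous array lay below every wild-type array. The means of 10.49 ± 0.11 and 10.87 ± 0.14 (SD, n = 3 each) in heterozygous and wild-type oviducts differed by -0.38 on the log2 scale (standard error 0.15), 1.30-fold lower in heterozygous oviducts. The unadjusted p was 0.0460, the only one under 0.05 among the members, and the adjusted p from limma was 0.933; the exact permutation p of 0.1 is the smallest that 3 arrays against 3 can give. On the deposited scaling the unadjusted p of this probe set was 0.0465, and after adding 16 to each intensity it was 0.0378. The trend and robust options of limma gave 0.0144, and a fit limited to the brighter probe sets gave 0.0227. In these fits the limma adjusted p was no lower than 0.692. The unadjusted p was 0.112 with the replicate number as a block and 0.0980 with the log2 of the Actb ratio as a covariate. It was 0.0351 without wild-type replicate 1 and 0.0772 to 0.138 without any other single array. In the fit without wild-type replicate 1, 4285 of all 45037 probe sets were under 0.05, against 2334 with all arrays. The suffix of 1426785_s_at marks probes that can also match transcripts of other genes.

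The next Mgll probe set, 1450391_a_at, read 10.58, 10.49 and 10.22 in heterozygous and 10.47, 10.65 and 10.67 in wild-type oviducts. Heterozygous replicates 1 and 2 lay above wild-type replicate 1, so the genotypes overlapped, and the log2 difference was -0.16 (standard error 0.16). At 1453836_a_at the level was 9.47, 9.73 and 9.80 in heterozygous and 10.05, 9.52 and 8.68 in wild-type oviducts. Here the wild-type arrays spanned the whole heterozygous range, and the log2 difference was positive, at 0.25 (standard error 0.36). The dim 1431331_at read 5.22, 4.39 and 4.42 in heterozygous and 4.14, 5.43 and 6.18 in wild-type oviducts, with a log2 difference of -0.57 (standard error 0.56).

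The Mgll probe sets 1453836_a_at and 1431331_at, which the annotation ties to the same transcript record, ordered the arrays in opposite ways. The 3 arrays with the higher Actb 3' to 5' ratio, heterozygous replicate 1 and wild-type replicates 2 and 3, were the lowest 3 at 1453836_a_at and the highest 3 at 1431331_at. They were also the highest 3 at 1450391_a_at. The same 3 arrays lay apart from the other 3 in 21.0% of all probe sets, so 3 of 14 members is a share near the background. With the log2 of the Actb ratio as a covariate, the log2 difference became -0.18 at 1453836_a_at and 0.07 at 1431331_at, both of the opposite sign, while 1426785_s_at stood at -0.33. Without wild-type replicate 3, the array of highest ratio, 1453836_a_at stood at -0.12 and 1426785_s_at at -0.37. Adipocyte markers, from a cell type rich in Mgll, ran the other way from 1426785_s_at: 3 of 4 measured genes were higher, and their summed level was 345 to 625 in heterozygous and 146 to 179 in wild-type arrays. Adipoq, Cidec and Lep, 3 of those 4, were dimmer than the median probe set. Smooth muscle markers were higher for 6 of 6 genes, with a summed level of 32773 to 43761 in heterozygous and 28961 to 31126 in wild-type arrays. Ciliated epithelium ran the same way as Mgll 1426785_s_at and Abhd6 in 3 of 5 markers, with a list median of -0.17 on the log2 scale: Foxj1 gave -0.31 without overlap (standard error 0.13, limma adjusted p = 0.782 over genes), Tekt1 -0.18 and Ccdc39 -0.17, while Tubb4b gave 0.03 and Dnah5 0.72. Its summed level overlapped, at 18416 to 20222 in heterozygous and 18051 to 21519 in wild-type arrays. Tubb4b, the brightest of the 5 at a mean of 13.38, made up the largest part of that sum. Secretory epithelium had 2 of 4 markers on each side, with Pax8 at -0.31 with overlap and a summed level of 35170 to 36638 in heterozygous and 32752 to 37328 in wild-type arrays. None of these 4 lists had a member past the threshold, and their part in the Mgll and Abhd6 values was not tested.

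**Figure D2:**
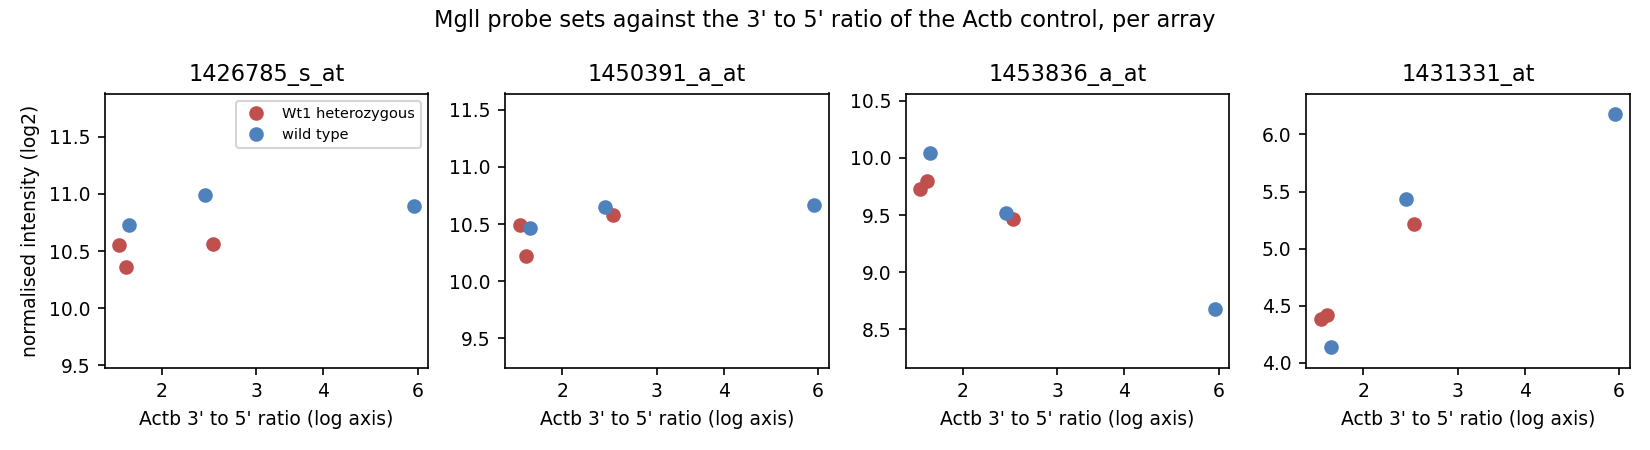
Normalised log2 intensity of the Mgll probe sets (vertical axes, all of the same span) against the Actb 3' to 5' ratio (horizontal log axis), 1 point per array, heterozygous in red and wild type in blue. The level falls with the ratio at 1453836_a_at, from 10.05 to 8.68 over the wild-type arrays, and climbs with it at 1431331_at; at 1426785_s_at the heterozygous points lie below the wild-type points.

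Abhd6, a membrane-bound serine hydrolase that takes a smaller share of 2-AG, was lower on average at both of its probe sets. At 1419104_at its level was 9.43, 9.27 and 9.60 in heterozygous oviducts, against 9.57, 9.68 and 9.88 in wild-type oviducts. Only heterozygous replicate 3 exceeded a wild-type array, by a small margin. The log2 difference was -0.28 (standard error 0.16, 1.21-fold lower in heterozygous oviducts). At 1419103_a_at it read 9.49, 9.16 and 9.37 in heterozygous and 9.65, 9.59 and 9.51 in wild-type oviducts. The genotypes did not overlap there, though heterozygous replicate 1 and wild-type replicate 3 were only 9.49 and 9.51. The difference was -0.24 (standard error 0.15), with a limma adjusted p of 0.933 at either probe set. Both values kept their sign in each fit with 1 array left out, from -0.36 to -0.20 at 1419104_at and from -0.32 to -0.16 at 1419103_a_at. With the log2 of the Actb ratio as a covariate they stood at -0.19 and -0.26. Wild-type replicate 3, the array of highest ratio, was the highest array at 1419104_at. Without that array the values were -0.20 at 1419104_at and -0.28 at 1419103_a_at. The probe sets ordered the heterozygous arrays differently: replicate 3 was the highest at 1419104_at and replicate 1 at 1419103_a_at, with replicate 2 lowest at both.

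The ratios of 2-AG synthesis to hydrolysis within each array, set to 0 at the wild-type mean, combined these values. The log2 ratio of Dagla to Mgll 1426785_s_at was 0.12, 0.00 and 0.67 in heterozygous and 0.00, -0.17 and 0.16 in wild-type oviducts, with overlap and with heterozygous replicate 3 far above the rest. The log2 ratio of Daglb to the same Mgll probe set was 0.40, 0.23 and 0.65 in heterozygous and 0.23, -0.09 and -0.14 in wild-type oviducts. Heterozygous replicate 2 and wild-type replicate 1 were level to that precision, and the other arrays lay apart by genotype. Mean log2 ratios were 0.27 ± 0.36 in heterozygous and 0 ± 0.17 in wild-type oviducts for Dagla to Mgll. For Daglb to Mgll they were 0.43 ± 0.21 in heterozygous and 0 ± 0.20 in wild-type oviducts (SD, n = 3 each). Both ratios rest on the Mgll probe set with the largest difference among its brighter ones: the log2 difference was -0.38 there, against -0.16 at 1450391_a_at and 0.25 at 1453836_a_at.

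**Figure D3:**
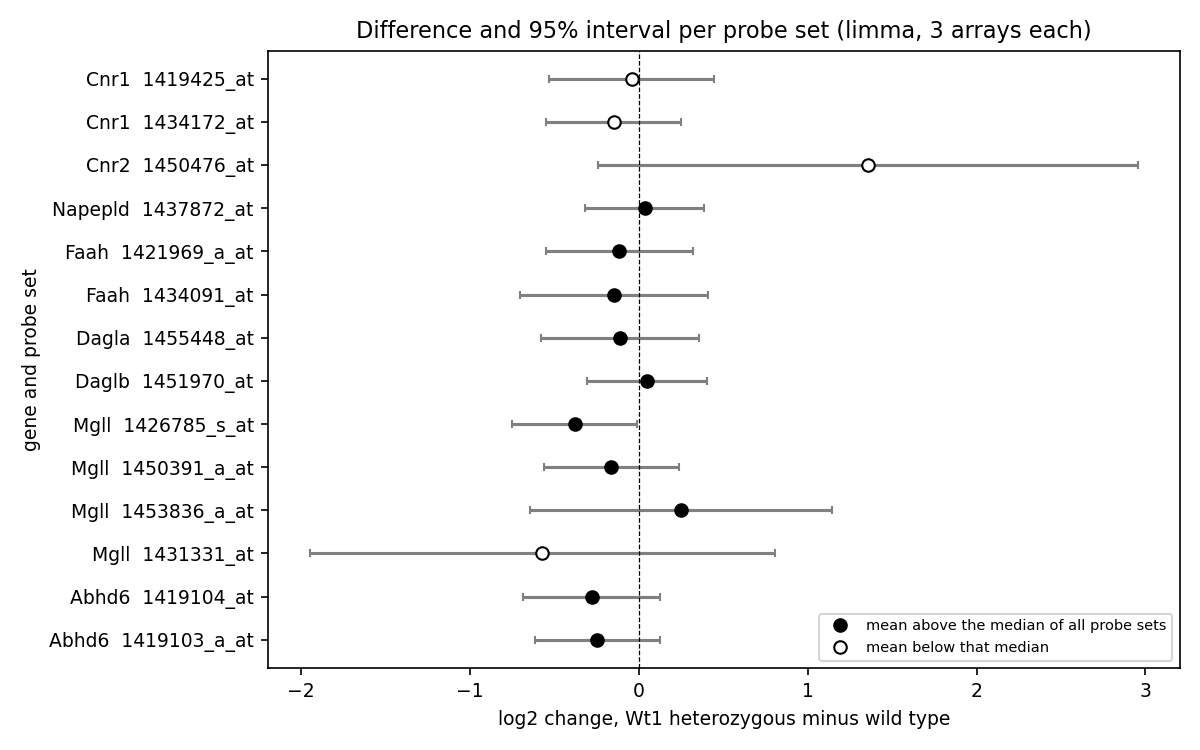
Log2 difference between Wt1 heterozygous and wild-type oviducts (horizontal axis) for each of the 14 probe sets, with 95% intervals from limma over 3 arrays each; filled points were brighter on average than the median probe set. The interval includes 0 everywhere but at Mgll 1426785_s_at, whose difference is -0.38, and it is widest at the dim probe sets of Cnr2 and Mgll.

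Of the 14 member probe sets, 10 from 6 genes were brighter on average than the median probe set. Their standard errors ran from 0.14 to 0.36, against a median of 0.24 over all probe sets, and no 95% interval among them reached below 0.595 or above 2.21 times the wild-type level. The upper bound belongs to Mgll 1453836_a_at. The median log2 difference over the 14 probe sets was -0.13, against -0.01 over all probe sets, and the median size without sign was 0.16 against 0.20. The intervals hold for single probe sets and do not say that a change of their size would have passed the threshold over all probe sets. Enzyme activity and lipid levels were not measured.

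Because WT1 is a transcription factor, the promoter windows of the members were searched on both strands for the letters GCGNGGGNG. These letters cover some of the recognition sequences known for WT1 and the related EGR1, and no other sequence was searched for. Windows ran from 250 bases before to 50 after each annotated start in RefSeq for GRCm38.p6, and 12 windows were found for 7 of the 8 genes. The letters occurred in 4 of these 12 windows, at Cnr1, Faah and both Mgll starts, and in 12.3% of all 32851 windows. The first listed window of Mgll, with 2 matches, the first of Abhd6, with 0, and the window of Faah, with 1, are shown because these genes are the hydrolases of both ligands. The second Mgll window held 1 further match and the second Abhd6 window 0. Capitals mark the matches, written 5′ to 3′ along the strand of the gene. A match on the opposite strand appears as its reverse complement.
Mgll (chr6:88724162-88724461, plus strand): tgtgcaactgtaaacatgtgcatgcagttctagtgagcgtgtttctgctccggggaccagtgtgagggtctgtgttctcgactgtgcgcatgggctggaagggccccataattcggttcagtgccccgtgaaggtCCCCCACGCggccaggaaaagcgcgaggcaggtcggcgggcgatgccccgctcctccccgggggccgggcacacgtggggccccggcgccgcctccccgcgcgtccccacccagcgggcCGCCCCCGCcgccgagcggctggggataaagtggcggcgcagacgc
Abhd6 (chr14:8002638-8002937, plus strand): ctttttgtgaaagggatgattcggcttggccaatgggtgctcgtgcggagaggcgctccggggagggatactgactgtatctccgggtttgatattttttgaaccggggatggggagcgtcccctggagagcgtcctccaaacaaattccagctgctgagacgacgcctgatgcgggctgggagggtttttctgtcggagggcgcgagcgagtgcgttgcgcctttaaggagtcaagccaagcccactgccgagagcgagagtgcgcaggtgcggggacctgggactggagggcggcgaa
Faah (chr4:116017875-116018174, minus strand): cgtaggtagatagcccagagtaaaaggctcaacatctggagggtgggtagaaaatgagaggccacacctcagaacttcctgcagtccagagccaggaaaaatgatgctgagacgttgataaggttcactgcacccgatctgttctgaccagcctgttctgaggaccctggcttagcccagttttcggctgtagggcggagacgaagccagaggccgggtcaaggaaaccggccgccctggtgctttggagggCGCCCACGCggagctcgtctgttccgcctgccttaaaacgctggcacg
The Mgll windows thus held 2 and 1 matches, the Faah window and the first Cnr1 window 1 each, and the Abhd6 windows 0. Any part of these matches in the levels was not tested. A match here describes letters and not a bound site, and a window without a match may still hold other sequences that WT1 binds.

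The wider endocannabinoid system was read from 6 further lists of 43 genes, of which 41 had a single-gene probe set; each gene was taken at its brightest one. None of the 41 passed in the limma fit over all genes (0 at an unadjusted p under 0.05 as well), where 0.0165% of 18193 genes passed and 6.44% had an unadjusted p under 0.05. The log2 difference was positive for 23 and negative for 18, where 55.0% of all genes were negative, with a median of 0.02 against -0.03 over all genes. The genotypes lay apart for 4 of the 41, 3 higher and 1 lower, against 11.8% of all genes in either direction.

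Among other degrading and oxidising enzymes, 2 of 6 genes were on the positive side and 4 on the negative, with a median of -0.02. Abhd12, a further 2-AG hydrolase, had a log2 difference of -0.48 (standard error 0.21, adjusted p = 0.800), with 11.45, 11.29 and 11.16 in heterozygous and 11.37, 11.94 and 12.02 in wild-type oviducts. Its other probe set gave 0.08, and with the Actb covariate the named one gave -0.29. Leaving out 1 array gave the named one -0.68 to -0.36. Alox5, a lipoxygenase, gave 0.36, its wild-type arrays spanning the heterozygous ones, and stood at 0.067 when wild-type replicate 2 was left out and at 0.63 when wild-type replicate 3 was. Ptgs2, the cyclooxygenase that can oxidise 2-AG and anandamide, gave -0.02.

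Other makers of anandamide and its precursors split 4 to 5 between the positive and the negative side, with a median of -0.03. The acyltransferase Plaat1 gave -0.23, and -0.05 at its other probe set. Plaat5, an acyltransferase with a dim probe set, gave 0.95 with overlap. Plaat5 stood at 0.29 without wild-type replicate 1, at 1.36 without wild-type replicate 3 and at 1.58 with the Actb covariate. Of the other receptors 3 of 6 were positive, with a median of 0.02; Trpv1, the heat and capsaicin channel that anandamide can open, gave -0.32, and the nuclear receptor Ppara gave -0.31, both at dim probe sets with overlap. The other Ppara probe sets, also dim and with overlap, gave -0.59 and -0.21. At the brightest probe sets, the values for Plaat1, Trpv1 and Ppara shrank to -0.095, -0.12 and -0.029 with the Actb covariate. Without wild-type replicate 3 the same genes stood at -0.098, -0.18 and -0.12, and Ppara at -0.089 without heterozygous replicate 3. Over all fits without 1 array their lowest values were -0.33, -0.51 and -0.59, in the same order.

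All 4 carriers had positive differences, with a median of 0.19. Fabp3, an intracellular fatty acid carrier, gave 0.33 (standard error 0.15, adjusted p = 0.809) without overlap, and 0.19 with overlap at its other, dim probe set. Fabp7, which carries anandamide in cultured cells, gave 1.23 at a dim probe set with overlap. Fabp7 stood at 0.61 with 16 added to each intensity, 0.60 with the Actb covariate, 0.66 when wild-type replicate 3 was left out and 2.01 when wild-type replicate 1 was. Fabp5 and Scp2 gave 0.06 and 0.03. Among the receptor partners and G proteins 6 of 9 were positive, with a median of 0.01. Cnrip1, which binds the tail of CB1, gave 0.26 (standard error 0.13, adjusted p = 0.831) without overlap, and 0.38, again without overlap, at its other probe set. Arrb2, beta-arrestin 2, which uncouples activated receptors, gave -0.36 without overlap, and -0.40 with overlap at its other probe set. Arrb2 stood at -0.19 without wild-type replicate 3, at -0.48 without wild-type replicate 1 and at -0.17 with the log2 Actb ratio as a covariate. In the list of diacylglycerol makers and arachidonate release 4 of 7 were positive, with a median of 0.09. Plcb1, a phospholipase C that supplies the substrate of the diacylglycerol lipases, gave 0.39 (standard error 0.17, adjusted p = 0.809) without overlap, and its other probe sets gave 0.24 to 0.72. Of these others, the one at 0.38 was without overlap, and the rest were dim and with overlap. Plcb3, of the same family, gave -0.30 with overlap, -0.085 without heterozygous replicate 3 and -0.43 without wild-type replicate 1.

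**Figure D4:**
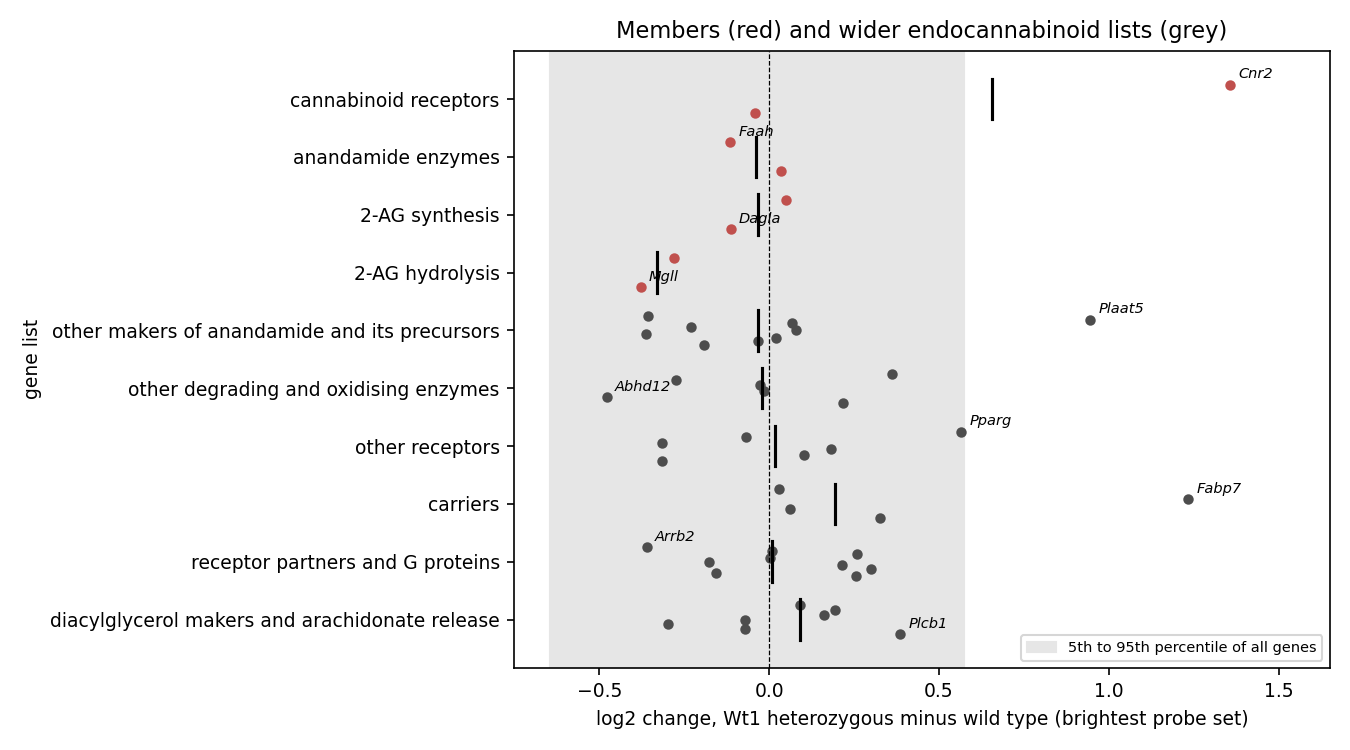
Log2 difference between Wt1 heterozygous and wild-type oviducts (horizontal axis) for the members, in red, and for the genes of the 6 wider lists, in grey, each at its brightest probe set; black bars are list medians, the shaded band spans the 5th to 95th percentile of all genes (-0.65 to 0.57), and the gene farthest from 0 is named in each list. Cnr2, Fabp7 and Plaat5, each at a dim probe set, lie to the right of the band.

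The genes whose level followed Cnr1 1419425_at most closely over the 6 arrays, among 11776 genes brighter than the median probe set, were Zbtb12 (Pearson r = 0.962), Cd81 (0.957) and Pgf (0.954). For Faah 1421969_a_at they were Selenos (0.979), Cep41 (0.971) and Slc35e1 (0.970). Such values are a description over 6 arrays of both genotypes that share 1 normalisation; 23 genes exceeded 0.9 for Cnr1 and 78 for Faah.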

How the data were processed

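The file deposited by the authors holds linear intensities, summarised to 45101 probe sets on each 1-colour array; the program they used is not given in the sources. The values show a mean of 500.002 in each array once 2% of probe sets at each end are removed, so they had been scaled. The 64 control probe sets were left out. Values were floored at 1 before taking log2, and arrays were quantile normalised because their medians differed by 0.147. Probe sets were named by the platform annotation: 34945 had 1 gene symbol, 932 several and 9160 none listed. Fits used limma 3.58.1 in R 4.3.3 (lmFit, eBayes; two-sided; Benjamini-Hochberg over all probe sets, or over genes at the brightest probe set), with exact two-sided permutation tests of single values. Scripts were tested on simulated data. The number of arrays limits the precision. Dim means a mean below the median of all probe sets, 7.28.

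All member probe sets are named; of each wider list the 2 genes of smallest p are named, and marker genes only as checks. Ptgs2, Fabp5 and Scp2 were named, and the alternatives printed beside genes of the wider lists were picked, after their values were seen. The members, lists and tests were chosen with earlier results of these data known. Alternatives were the deposited scaling, 16 added to each intensity, a filter on dim probe sets, trend and robust, the replicate number as a block, the log2 Actb ratio as a covariate, averaging a gene's probe sets, and leaving out each array. Same-numbered samples were checked for pairing: their deviations from the group means correlated at -0.10, -0.03 and -0.08 over genes. No effect shared by number was seen, which cannot tell whether same-numbered samples had been handled together. The main fits treated them as unpaired.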

Additional observations from a re-analysis of the deposited data

How the results depend on the processing

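Across 164 refits of the 14 member probe sets, 0 passed the threshold and 157 kept the direction. The 7 exceptions concerned 5 probe sets. Over the fits that left out 1 array, Cnr1 1419425_at ranged from -0.206 to 0.089, Napepld from -0.018 to 0.108, Daglb from -0.0056 to 0.118 and Mgll 1453836_a_at from -0.12 to 0.57, the sign turning without wild-type replicate 2 or heterozygous replicate 3 for Cnr1, without wild-type replicate 1 for Napepld, and without wild-type replicate 3 for Daglb and Mgll. With the log2 Actb 3' to 5' ratio as a covariate, Mgll 1453836_a_at stood at -0.18 and Mgll 1431331_at at 0.073; the cause was not tested. No refit of Mgll 1426785_s_at or of Abhd6 changed sign, and leaving out 1 array gave them an adjusted p no lower than 0.515. The members at an unadjusted p under 0.05, 1 with all arrays, numbered 0 to 2 when 1 array was left out. With the replicate number as a block, 0 probe sets and 0 genes passed, the members included, against 3 probe sets and 3 genes without it; with the Actb ratio as a covariate the counts were likewise 0 and 0. The count of probe sets was 1 with 16 added to each intensity. The count of genes was 1 with trend and robust, and 1 without the dim probe sets. Leaving out 1 array gave 0 to 1 probe sets, 0 genes, 0 members and 0 genes of the wider lists. The cause of these lower counts was not tested. The fits with a block, a covariate or 1 array left out also had fewer residual degrees of freedom. Dim probe sets, those of Cnr1 and Cnr2 among them, have no detection call, so signal over background limits what they can show.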
